A study of Mus musculus with 32 samples.

Results

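The genes described here encode the chains of the collagens, the proteins that form fibrils, sheets and networks outside cells. They were taken as every protein-coding mouse gene in the count table whose symbol is Col, a number, the letter a and a number, which gave 44 genes of 55938 rows. Of these, 27 reached a mean of 0.5 CPM (the usual count relative to a library's total, scaled between libraries) over all 32 libraries and are described, and 17 lay below that level and are only counted. The lowest described genes were Col19a1 with a mean of 0.651 CPM and Col4a6 with 0.765 CPM, and the highest genes left out were Col4a4 with 0.457 CPM and Col8a1 with 0.407 CPM.

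A collagen molecule is a triple helix of alpha chains, which may be copies of one gene's product or come from different genes. The chains are hydroxylated and folded in the endoplasmic reticulum, secreted, trimmed and crosslinked. Fibrillar collagens form the fibres of connective tissue, type IV collagens the sheet of the basement membrane, type VI collagens beaded filaments, and FACIT collagens attach to the surface of fibrils. Transmembrane collagens sit in the plasma membrane, and multiplexins are collagens of the basement membrane zone. In the spinal cord, collagen is known chiefly from the meninges, the vessel walls and nerve roots, and astrocyte endfeet rest on the basement membrane of the vessels.

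All animals carried Aldh1l1-CreER (a tamoxifen-dependent Cre recombinase under the promoter of an astrocyte gene, spelled Aldhl1l-CreER in the sample labels) and Rpl22-HA, which places an HA tag on a ribosomal protein where Cre has acted. RNA on tagged ribosomes was pulled down from homogenised lumbar cord with an HA antibody, giving 24 Trap libraries, and 8 Input libraries hold RNA of all cells of the cord. The animals of both sexes either had no fracture or had been fractured 3, 5 or 7 weeks before, as a model of complex regional pain syndrome. Each combination of sex and state had 3 Trap libraries and 1 Input library. The uninjured group has the same alleles and no fracture. Age and the way the tag was induced are not given in the sources used here, nor whether each library is 1 animal. The p-values therefore speak of the variation among libraries, which may be technical.

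Estimated counts summed to 17124034 to 23189228 per Trap library and 17981133 to 22907909 per Input library. All 8 astrocyte markers were higher in Trap (edgeR, adjusted p under 0.05, here named a call), and all 8 neuron, 8 microglia and 8 oligodendrocyte markers were lower. Of 6 ependymal markers, 3 were higher and 3 lower, with sums of 32.5 to 51.4 CPM in Trap and 27.3 to 39.4 CPM in Input, and of 6 OPC (oligodendrocyte precursor) markers 2 were higher and 3 lower. In the Trap library of females at 3 weeks, replicate 3, the neuron marker sum was the highest of 24 (666 CPM), and the astrocyte marker sum (41208 CPM) and the collagen sum (400.2 CPM) were the lowest. The Trap library of males at 7 weeks, replicate 2, had the highest microglia marker sum (75.3 CPM) and the lowest mural sum (138 CPM). These libraries held the lowest Trap value of 6 and of 4 of the 27 described collagen genes, and results are given without both where that changes a call. Their lowest correlations with a replicate were 0.984 and 0.978. Trap females at 5 weeks, replicate 3, came close, with 0.986 and a collagen sum of 410 CPM, and this library was kept.

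The astrocyte pull-down held more collagen RNA than the whole cord, and a different mixture. The 44 genes summed to 400.2 CPM in the lowest Trap library, 516 CPM in the median one and 598 CPM in the highest, against 155, 165 and 173 CPM in Input. The groups did not overlap. Col1a2, Col23a1, Col4a5, Col16a1 and Col9a3 were the genes with the largest difference in favour of Trap, and Col25a1 had the largest in favour of Input. Of the 36 collagen genes with enough counts to test, 14 were higher in Trap (38.9%) and 21 were lower (58.3%), beside 43.3% higher and 44.3% lower over all 17101 genes tested. The median log2 difference was -0.88 over the 36 collagen genes and -0.01 over all genes. In bulk RNA of this kind, fewer cells of a type and less RNA per cell cannot be told apart.

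**Figure D1:**
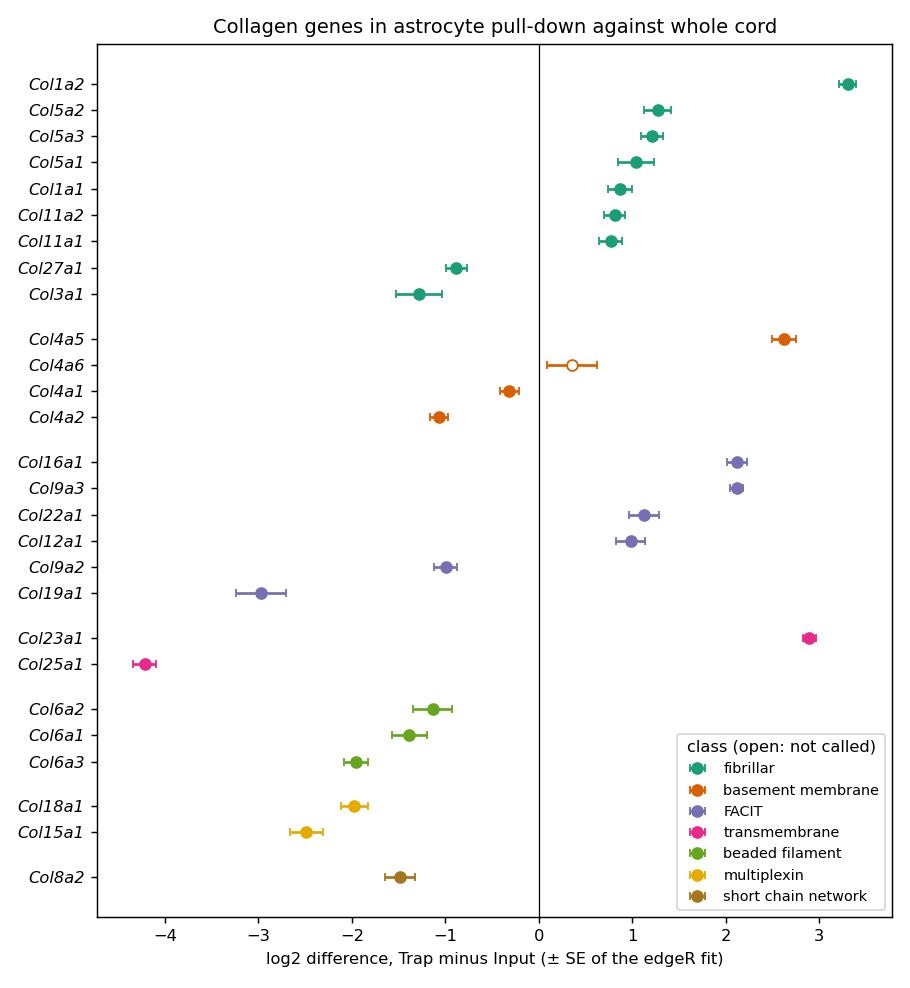
Log2 difference of Trap minus Input (horizontal axis, points, with the standard error of the edgeR fit as bars) for the 27 described collagen genes, coloured by class. Most fibrillar genes lie to the right of 0, led by Col1a2 at 3.31, and all beaded filament and multiplexin genes lie to the left. The open point marks Col4a6, which was not called. Over all genes tested, 43.3% were higher and 44.3% lower.

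The bases ahead of the start site are shown for the 3 genes with the largest difference in favour of Trap. They are the RefSeq sequence of GRCm38.p6 ahead of the RefSeq start, without annotated exon bases, on the plus strand and 5′ to 3′. The window of Col1a2 lost 127 exon bases, so its stretch ends some way ahead of the RefSeq start. The stretch lies within the GENCODE gene, which starts 804 bases upstream of the RefSeq start. The window of Col4a5 lost 34 exon bases and its stretch ends at the GENCODE start, and that of Col23a1 reaches the start itself. Capitals mark GGGCGG (the core of a GC box) and CCAAT, on either strand, and none of the stretches shown held TATAA.
Col1a2, chr6:4505370-4505492, 123 bases: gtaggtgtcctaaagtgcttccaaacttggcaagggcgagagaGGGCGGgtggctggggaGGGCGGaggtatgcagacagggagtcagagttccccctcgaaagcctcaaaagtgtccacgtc
Col23a1, chr11:51289670-51289919, 250 bases: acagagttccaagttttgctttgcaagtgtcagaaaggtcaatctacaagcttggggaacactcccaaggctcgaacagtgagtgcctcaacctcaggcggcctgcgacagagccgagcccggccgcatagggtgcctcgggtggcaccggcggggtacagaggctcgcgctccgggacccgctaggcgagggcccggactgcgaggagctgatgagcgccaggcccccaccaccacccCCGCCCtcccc
Col4a5, chrX:141475169-141475384, 216 bases: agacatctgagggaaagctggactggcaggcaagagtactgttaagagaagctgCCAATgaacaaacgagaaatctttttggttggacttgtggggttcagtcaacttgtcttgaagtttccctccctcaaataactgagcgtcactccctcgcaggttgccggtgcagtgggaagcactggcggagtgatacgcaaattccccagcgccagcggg
Motifs were also counted over the whole 250 bases before each RefSeq start, exon bases included, on both strands. CCAAT was in 34.2% of the 38 windows of 35 matched collagen genes and in 33.8% of all 32851 windows. TATAA was in 18.4% and 22.8%, and GGGCGG in 57.9% and 32.7%. A match is a run of letters and not a shown binding site.

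Among the fibrillar collagens, 7 of 10 tested genes were higher in Trap and 3 were lower. This and the counts of the other classes stand beside 43.3% higher and 44.3% lower over all genes. Col1a2 (ENSMUSG00000029661.16, chromosome 6, 4504814 to 4541544, plus strand), the alpha 2 chain of type I collagen, had 151 CPM in the lowest Trap library, 225 CPM in the median one and 314 CPM in the highest. In Input it had 20.7, 22.0 and 24.5 CPM, so that every Trap library lay far above every Input library. Its log2 difference was 3.31 ± 0.0900 (SE, edgeR adjusted p = 1.17e-26). Col1a1 (ENSMUSG00000001506.10, chromosome 11, 94936224 to 94953042, plus strand) encodes the alpha 1 chain, which joins the alpha 2 chain in the common form of type I collagen. Its Trap libraries had 4.26, 7.12 and 12.5 CPM (lowest, median, highest) and its Input libraries 3.12, 3.86 and 5.54 CPM, with overlap between the groups. The log2 difference of Col1a1 was 0.87 ± 0.131 (adjusted p = 2.60e-07).

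Both chains of type I collagen were therefore higher in Trap, by unequal amounts. Per kilobase of exon (the merged exons of all annotated transcripts, which understates genes with rare extra exons), the ratio of Col1a2 to Col1a1 was 9.77 in the lowest Trap library, 16.4 in the median and 20.9 in the highest. In Input the ratio was 2.02, 3.21 and 3.59.

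The minor fibrillar chains, which form mixed fibrils with types I and II, were also mostly higher. Col5a2 differed by 1.27, Col5a3 by 1.21 and Col5a1 by 1.04 on the log2 scale, and the type XI genes Col11a2 and Col11a1 by 0.81 and 0.77. Col5a3 was the one of these whose groups did not overlap, with 4.27 to 8.26 CPM in Trap and 1.92 to 3.26 CPM in Input. Col3a1, the fibrillar collagen of soft tissue and vessel walls, was lower in Trap. It had 0.189, 0.598 and 3.63 CPM in Trap (lowest, median, highest) and 1.52, 2.01 and 2.54 CPM in Input, a log2 difference of -1.29 ± 0.247 (adjusted p = 1.96e-05). The highest Trap library, males at 5 weeks replicate 3, lay above all Input libraries for Col3a1, and the next, at 1.63 CPM, lay within their range. Col27a1, a fibrillar collagen of cartilage, was lower by a log2 difference of -0.88.

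The type IV chains of the basement membrane went in both directions, with 2 of 5 tested higher, 2 lower and 1 not called. These counts are not far from the shares over all genes (43.3% higher and 44.3% lower). Col4a5 (ENSMUSG00000031274.16, chromosome X, 141475385 to 141689234, plus strand), a chain of the alpha 3-4-5 and alpha 5-6 networks, had 7.42, 11.8 and 15.5 CPM in Trap and 1.32, 1.92 and 2.54 CPM in Input. These groups did not overlap, and the log2 difference was 2.63 ± 0.129 (adjusted p = 2.52e-19). Col4a2 (ENSMUSG00000031503.13, chromosome 8, 11312805 to 11449287, plus strand), which joins Col4a1 in the network found in nearly all basement membranes, showed the reverse. Its Trap libraries had 3.29, 6.18 and 8.65 CPM, all below the 11.1, 12.4 and 14.5 CPM of Input, a log2 difference of -1.07 ± 0.0947 (adjusted p = 2.09e-12).

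Col4a1, the partner of Col4a2, differed less, by -0.32 ± 0.0996 (adjusted p = 0.00413), with overlapping groups. The ratio of Col4a5 to Col4a1 per kilobase was 1.37 to 3.16 over the Trap libraries and 0.178 to 0.440 over the Input libraries. The ratio of Col4a2 to Col4a1 was 0.752 to 1.75 in Trap and 1.73 to 2.47 in Input. Col4a6, whose gene lies head to head with Col4a5, was not called at 0.36 ± 0.265 (adjusted p = 0.202), and Col4a4, below 0.5 CPM, was higher by 1.00. Col4a1 and Col4a2 share 22 bases on opposite strands, and whether the counting used strand is not given in the sources used here.

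Of the FACIT collagens, 4 of 9 tested were higher and 5 lower, not far from the shares over all genes (43.3% and 44.3%). Col9a3 (ENSMUSG00000027570.15, chromosome 2, 180597790 to 180622189, plus strand), the alpha 3 chain of type IX collagen, had 35.9, 43.7 and 51.2 CPM in Trap and 8.62, 10.01 and 12.01 CPM in Input. It was higher in every Trap library, by 2.12 ± 0.0662 (adjusted p = 5.48e-25). Col9a3 shares 234 bases with Tcfl5 on the other strand. Type IX collagen of cartilage is built from 3 different chains, and the other two did not follow. Col9a2 (ENSMUSG00000028626.5, chromosome 4, 121039385 to 121055322, plus strand) had 0.753, 2.31 and 3.48 CPM in Trap, all below the 3.88, 4.51 and 5.63 CPM of Input, with a log2 difference of -0.997 ± 0.127 (adjusted p = 9.00e-09). Col9a1, below 0.5 CPM, was lower by a log2 difference of -0.87. The ratio of Col9a3 to Col9a2 per kilobase was 9.26 to 46.5 in Trap and 1.55 to 2.13 in Input.

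Col16a1 (ENSMUSG00000040690.15, chromosome 4, 130047840 to 130099283, plus strand), a FACIT collagen of many tissues, had 19.2, 28.1 and 46.3 CPM in Trap and 5.34, 6.27 and 8.83 CPM in Input. The groups did not overlap, and the log2 difference was 2.12 ± 0.108 (adjusted p = 1.10e-18). Col22a1, a collagen of tissue junctions, and Col12a1, a collagen of dense connective tissue, differed by 1.13 and 0.98 with overlapping groups. Col19a1 (ENSMUSG00000026141.13, chromosome 1, 24261890 to 24587472, minus strand), a minor FACIT chain, was lower by a log2 difference of -2.97 ± 0.269, from 0, 0.159 and 1.37 CPM in Trap and 0.938, 1.94 and 2.61 CPM in Input. Its Trap values rest on 0 to 29 estimated counts a library.

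The transmembrane collagens split most widely. Col23a1 (ENSMUSG00000063564.13, chromosome 11, 51289920 to 51583918, plus strand) had 90.8, 117 and 135 CPM in Trap and 13.4, 15.3 and 17.01 CPM in Input. All Trap libraries were higher, by 2.90 ± 0.0729 (adjusted p = 1.45e-27). Col25a1 (ENSMUSG00000058897.18, chromosome 3, 130131501 to 130599877, plus strand), a transmembrane collagen of neurons whose shed part was found in amyloid plaques, had 0.482, 0.958 and 2.08 CPM in Trap and 10.3, 19.9 and 24.2 CPM in Input. Every Trap library lay below every Input library for Col25a1, by a log2 difference of -4.22 ± 0.124 (adjusted p = 1.33e-25).

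The remaining classes had no gene higher in Trap. All 4 tested beaded filament genes, both multiplexins and both tested short chain genes were lower, beside 44.3% of all genes. Each of these classes holds few tested genes, and most of the genes had a mean under 1 CPM in Trap. Col6a3 (ENSMUSG00000048126.16, chromosome 1, 90765923 to 90843971, minus strand), the largest type VI chain, had 0.324, 0.724 and 1.36 CPM in Trap and 1.85, 2.75 and 3.75 CPM in Input, with no overlap and a difference of -1.96 ± 0.131 (adjusted p = 1.66e-15). Col6a2 (ENSMUSG00000020241.13, chromosome 10, 76595762 to 76623630, minus strand), another chain of the same filaments, had 0.272, 0.935 and 2.64 CPM in Trap and 1.49, 2.68 and 3.59 CPM in Input, with overlap (-1.14 ± 0.211, adjusted p = 1.09e-05), and Col6a1 differed by -1.39. Col18a1 (ENSMUSG00000001435.15, chromosome 10, 77052178 to 77166548, minus strand), the precursor of endostatin, had 0.244, 0.760 and 1.39 CPM in Trap against 2.64, 3.11 and 3.77 CPM in Input, also without overlap (-1.97 ± 0.145, adjusted p = 1.99e-14). It shares 8825 bases of its span with Slc19a1 on the other strand. Col15a1 (ENSMUSG00000028339.17, chromosome 4, 47208161 to 47313167, plus strand), the other multiplexin, had 0.104, 0.445 and 1.49 CPM in Trap, all below the 1.98, 2.79 and 3.102 CPM of Input (-2.49 ± 0.178, adjusted p = 1.18e-14). Col8a2 (ENSMUSG00000056174.8, chromosome 4, 126286793 to 126314330, plus strand), a chain of the sheet beneath the corneal endothelium, had 0.196, 0.562 and 1.04 CPM in Trap and 0.883, 1.67 and 2.53 CPM in Input, with overlap (-1.49 ± 0.159, adjusted p = 2.26e-10).

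Below 0.5 CPM, 9 of 17 genes could be tested. Col26a1, Col8a1 and Col6a4 were the lowest relative to Input, with log2 differences of -3.41, -3.10 and -2.70. Col20a1, Col2a1, Col14a1 and Col7a1 were also lower, at -2.31, -2.19, -1.57 and -0.76. Col4a3, Col6a5, Col6a6, Col10a1, Col13a1, Col17a1, Col24a1 and Col28a1 had too few counts for a test.

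Across all tested collagen genes, every Trap library lay above every Input library for 6 genes (16.7%, beside 26.3% of all genes) and below for 8 (22.2%, beside 27.2% of all genes). The 6 were Col1a2, Col23a1, Col9a3, Col16a1, Col4a5 and Col5a3, and the 8 were Col4a2, Col9a2, Col25a1, Col18a1, Col6a3, Col15a1, Col8a1 and Col26a1.

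**Figure D2:**
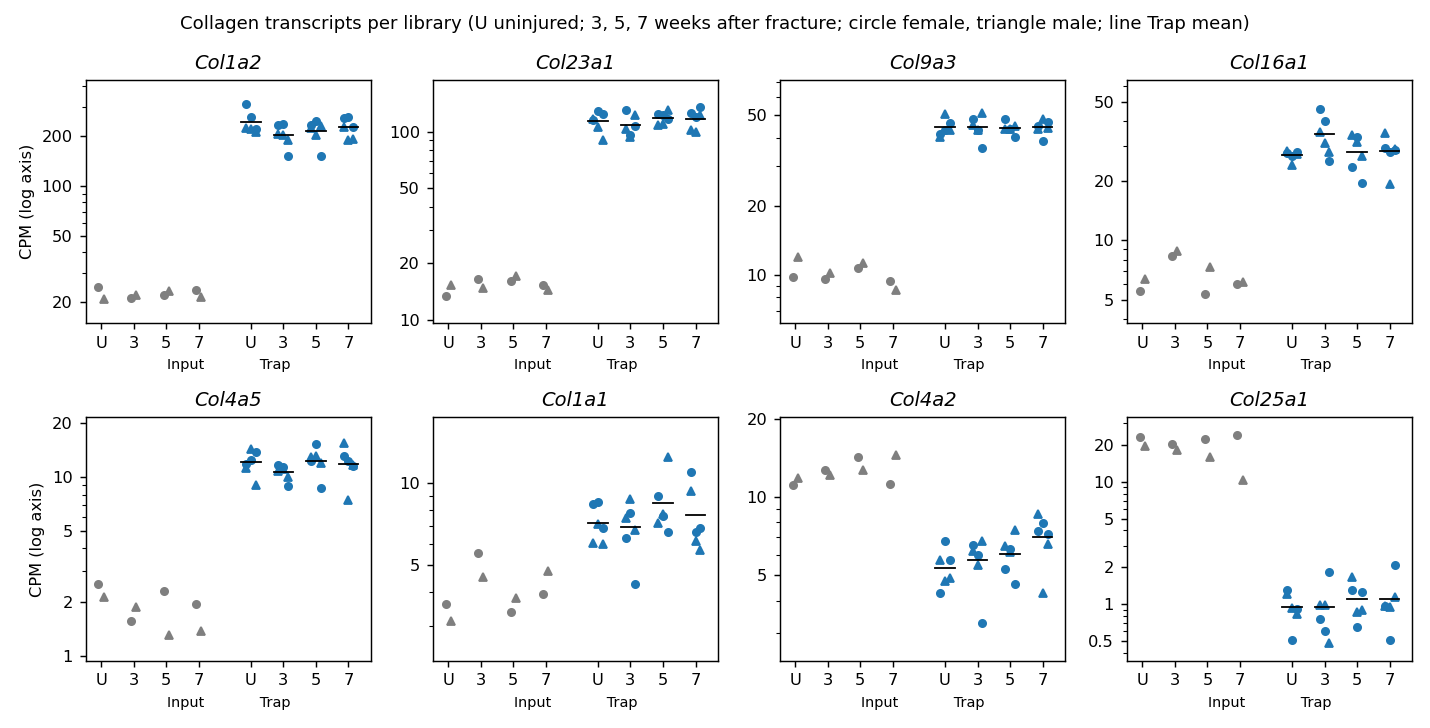
CPM of 8 collagen genes in every library on a log axis (vertical), with Input in grey and Trap in blue, by state (horizontal) and sex (circles female, triangles male), and the mean of the 6 Trap libraries of a state as a line. Col1a2, Col23a1, Col9a3, Col16a1 and Col4a5 stand above Input in every state, Col4a2 and Col25a1 below it, and no difference between Trap states was called.

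Compared between genes per kilobase of exon, 3 genes made up most of the collagen level of Trap. Col23a1 had a mean of 19.98 CPM per kilobase, Col1a2 17.9 and Col9a3 11.5, followed by Col11a2 and Col16a1 with 4.35 each. The median shares of the summed level per kilobase were 29.8% for Col23a1, 26.5% for Col1a2 and 17.1% for Col9a3. Input was spread over more genes, with 11.99% for Col23a1, 11.8% for Col9a3, 10.6% for Col11a2, 8.12% for Col4a2 and 7.80% for Col1a2. Col25a1 had 1.49 CPM per kilobase in Input and 0.0791 in Trap.

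Genes around collagen were counted in 5 lists, each to be read beside the 43.3% of all genes that were higher in Trap, the 44.3% that were lower and the all-gene median of -0.01. Of 20 genes of folding and modification, 16 were higher, 2 lower and 2 not called, with a median log2 difference of 1.28. Fkbp10, a prolyl isomerase of the endoplasmic reticulum, had 54.5 ± 5.01 CPM in Trap (SD, n = 24) and 4.57 ± 1.01 CPM in Input (SD, n = 8), a log2 difference of 3.58. Serpinh1, the collagen chaperone Hsp47, had 89.2 ± 6.59 and 10.8 ± 1.48 CPM (log2 3.05). The prolyl hydroxylase subunits P4ha3 and P4ha1 differed by 3.04 and 2.66. The collagen galactosyltransferases Colgalt1 and Colgalt2 were the 2 genes that were lower.

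Of 14 tested genes of procollagen cleavage and crosslinking, 5 were higher, 8 lower and 1 not called (median -1.25), which is not far from the shares over all genes (43.3% and 44.3%). Loxl1 and Loxl3, which oxidise lysines for crosslinking, were higher by 3.23 and 3.04. Pcolce2, an enhancer of procollagen C-terminal cleavage, and Adamts3, a procollagen N-terminal protease, were lower, by -3.64 and -3.33 on the log2 scale. Of 10 tested genes of breakdown, 4 were higher and 6 lower (median -1.35), again not far from those shares. Mmp14, a membrane-bound collagenase, was higher by 3.46, as were the metalloproteinase inhibitors Timp4 (3.05) and Timp3 (2.99). Timp2 was lower, with 86.7 ± 7.62 CPM in Trap and 388 ± 33.2 CPM in Input (log2 -2.16).

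Of 10 tested collagen receptors, 7 were higher, 1 lower and 2 not called (median 0.97), beside 43.3% higher and 44.3% lower over all genes. Adgrg1, an adhesion receptor that binds type III collagen, had 758 ± 110 CPM in Trap and 94.1 ± 10.8 CPM in Input, a log2 difference of 3.01. Lair1, an inhibitory receptor of immune cells, the tyrosine kinase receptor Ddr1 and the integrin subunit Itgb1 differed by 1.26, 1.02 and 0.90. Of 12 proteoglycans and partners, 8 were higher, 2, Dcn and Lum, were lower and 2 were not called (median 0.87). Sparc, a secreted collagen-binding glycoprotein, had 12282 ± 1208 CPM in Trap and 1136 ± 89.7 CPM in Input. Prelp, Bgn and Fmod, small leucine-rich proteoglycans, differed by 2.25, 1.62 and 0.91. None of these genes was called in a comparison among states or sexes.

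**Figure D3:**
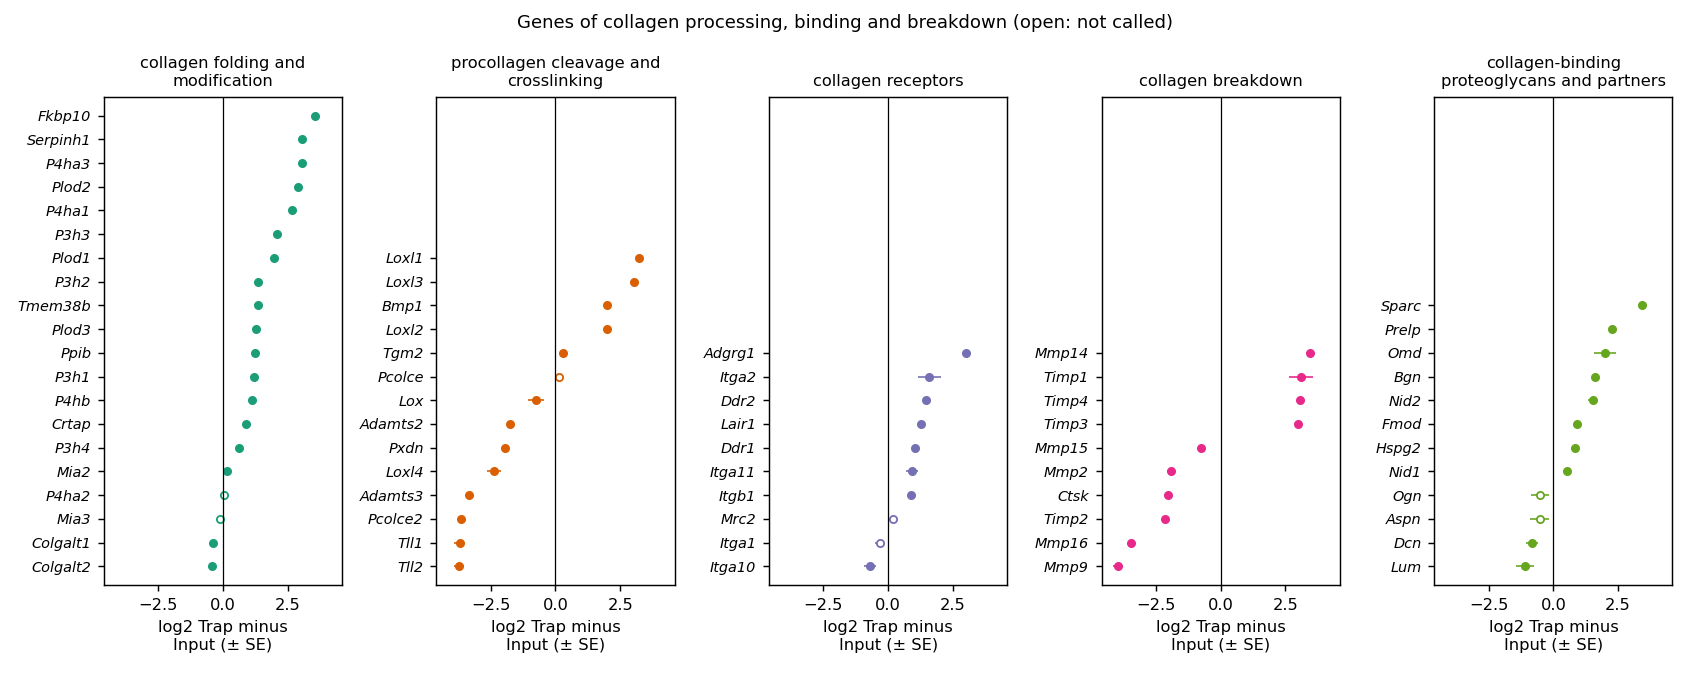
Log2 difference of Trap minus Input (horizontal axis, points, with the standard error as bars) for each tested gene of 5 lists around collagen, open where not called. Folding genes lie mostly to the right of 0, with Fkbp10 farthest at 3.58, while processing and breakdown genes fall on both sides, from Loxl1 and Mmp14 to Pcolce2 and Mmp9.

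Markers of the cells usually credited with collagen were counted in the same comparison. The 12 fibroblast and meninges markers summed to 11.9, 15.7 and 33.0 CPM in Trap (lowest, median, highest) and to 63.9, 70.6 and 76.4 CPM in Input. Of the 9 tested, 8 were lower in Trap and Islr was higher by 2.28. Pdgfra, which is also in the OPC list, made up most of the Input sum, with a mean of 43.8 CPM (2.86 CPM in Trap). In Trap the highest means of the list were those of Islr, 6.80 CPM (1.38 CPM in Input), and Dcn, 3.73 CPM (6.30 CPM in Input). The sum is therefore not a measure of fibroblasts alone. Slc22a6 was at 0 in 23 of 24 Trap libraries and in all 8 of Input, and Crabp2 in 17 of 24. All 11 endothelial markers were lower. Mural markers were mixed: Notch3, Pdgfrb and Tagln were higher and 7 were lower, with Higd1b at 0 in 11 of 24 Trap libraries. The mural sum was 138 to 243 CPM in Trap and 77.2 to 111 CPM in Input. Most of the Trap sum came from Notch3 and Pdgfrb, with means of 115 and 40.2 CPM (17.3 and 8.55 CPM in Input). Of 7 tested Schwann cell markers, 3 were higher and 2 lower. The part of mural and Schwann cell RNA in the collagen values of Trap was not tested.

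After fracture, no collagen gene was called in Trap at 3, 5 or 7 weeks. These comparisons set 6 libraries of a time against the same 6 uninjured libraries, and edgeR called 0 of 28 tested collagen genes each time, beside 0.111% of all genes at 3 weeks, 0.00% at 5 weeks and 0.00% at 7 weeks. DESeq2 also called 0. At an unadjusted p under 0.05 there were 4 collagen genes at 3 weeks, 3 at 5 weeks and 3 at 7 weeks, out of 28, where 8.65%, 2.76% and 2.85% of all genes passed. Col9a3, for example, had a mean of 44.3 CPM without fracture and 44.5, 44.0 and 44.3 CPM at 3, 5 and 7 weeks.

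**Figure D4:**
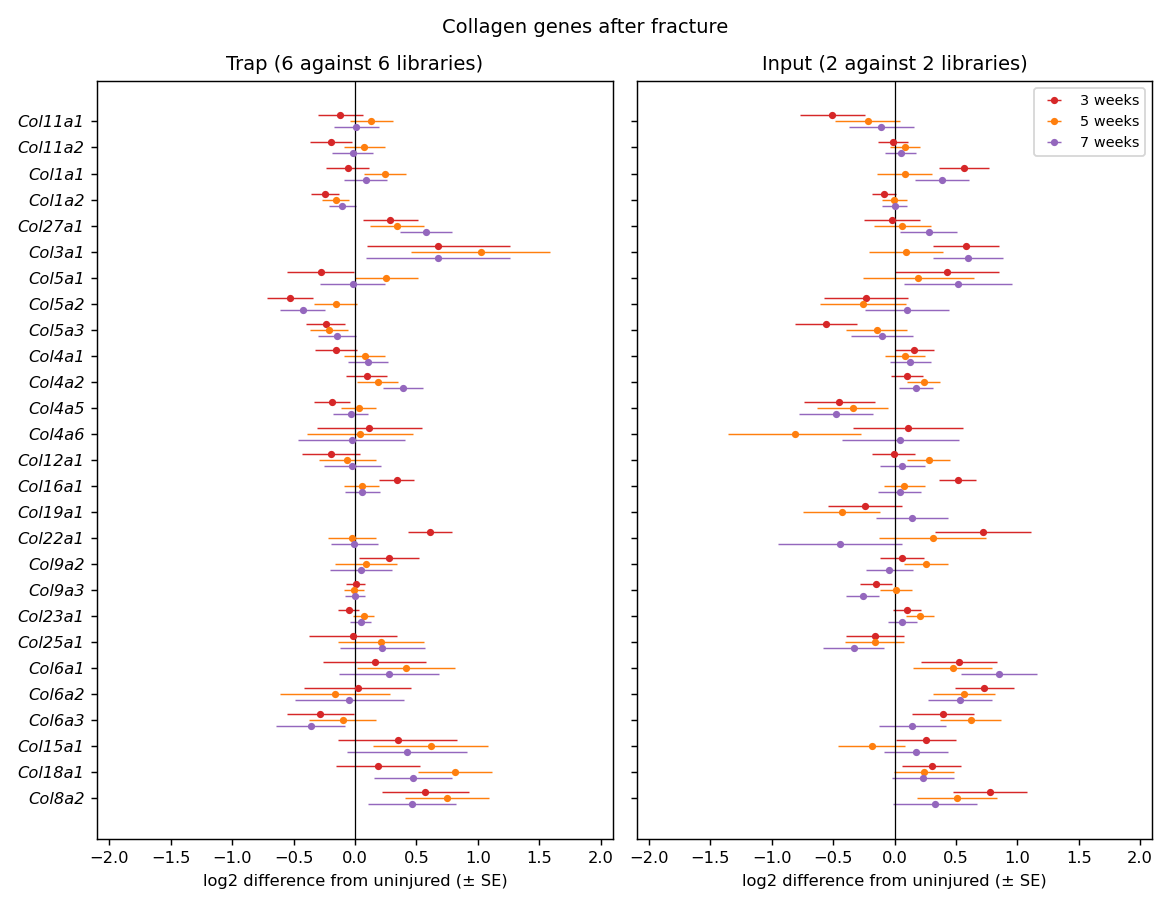
Log2 difference from uninjured (horizontal axis, ± SE) at 3, 5 and 7 weeks after fracture for the 27 described collagen genes, in Trap (left) and Input (right). No point was called; the Trap values of Col9a3 and Col23a1 lie close to 0, and Col16a1 lies to the right of 0 at 3 weeks in both panels. Col19a1 had too few Trap counts.

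Col16a1 was the collagen gene that passed an unadjusted p under 0.05 at 3 weeks in both Trap (4 of 28 passed) and Input (7 of 36 passed). Whether Trap and Input libraries share animals is not given, so these 2 results are not known to be independent. In Trap it had 24.02, 27.4 and 28.2 CPM without fracture and 25.2, 33.2 and 46.3 CPM at 3 weeks (lowest, median, highest), with overlap. The difference was 0.34 ± 0.143 (adjusted p = 0.481). Without the 2 libraries that stood apart, females at 3 weeks replicate 3 and males at 7 weeks replicate 2, it was 0.45 ± 0.103 and was called (adjusted p = 0.0380), beside adjusted p-values of 0.0380 to 0.804 over all alternatives. Without the 3-week library alone the difference was also 0.45 and was not called. In Input, Col16a1 had 5.55 CPM in the uninjured female library and 6.39 CPM in the male one, and 8.37 and 8.83 CPM at 3 weeks. Both 3-week Input libraries were above both uninjured ones, by 0.51 ± 0.154 (adjusted p = 0.134). At 5 and 7 weeks the Trap medians of Col16a1 were 29.0 and 28.8 CPM, and the Input libraries had 5.34 and 7.37 CPM at 5 weeks and 6.01 and 6.15 CPM at 7 weeks.

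Col22a1 had the smallest p of the collagen genes in Trap at 3 weeks. Its values were 1.35, 1.64 and 2.27 CPM without fracture and 1.59, 2.55 and 3.65 CPM at 3 weeks, a difference of 0.61 ± 0.180 (adjusted p = 0.198). At 5 and 7 weeks its medians were 1.73 and 1.98 CPM. Col5a2 had 2.25, 3.23 and 4.16 CPM without fracture and 1.28, 2.32 and 3.56 CPM at 3 weeks (-0.53 ± 0.186, adjusted p = 0.342). Col1a2 had 213, 223 and 314 CPM without fracture and 151, 205 and 239 CPM at 3 weeks (-0.24 ± 0.112, adjusted p = 0.545), and differed by -0.15 without females at 3 weeks replicate 3. In all of these the groups overlapped.

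At 5 weeks Col18a1 had 0.538, 1.11 and 1.39 CPM against 0.284, 0.504 and 1.04 CPM without fracture (0.81 ± 0.301, adjusted p = 1.00). Col8a2 differed by 0.75, and Col9a1, below 0.5 CPM, also passed unadjusted. At 7 weeks Col27a1 differed by 0.58, Col4a2 by 0.39 and Col5a2 by -0.42, none of them called.

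The highest values of several connective tissue collagens came from 1 library. The Trap library of males at 5 weeks, replicate 3, was the highest of 24 for 5 of the 27 described genes, with 12.5 CPM for Col1a1, 3.63 CPM for Col3a1, 1.74 CPM for Col6a1, 1.49 CPM for Col15a1 and 1.04 CPM for Col8a2. Its fibroblast marker sum, 33.0 CPM, was also the highest, where the other 23 libraries had 11.9 to 24.1 CPM. Its Schwann marker sum, 322 CPM, was the second highest, within the 195 to 350.2 CPM of the others. The part of either cell type in its collagen values was not tested. Its Col1a2 value, 232 CPM, was the ninth highest. Col3a1 differed by 1.02 between 5 weeks and uninjured with that library and by 0.18 without it, and was called in neither fit.

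**Figure D5:**
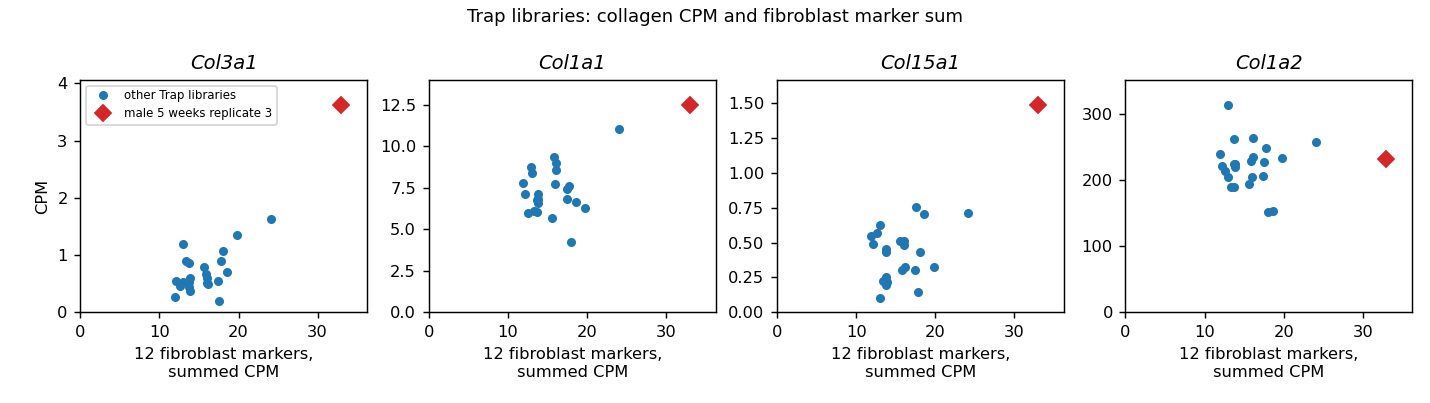
CPM of 4 collagen genes (vertical axes) against the summed CPM of 12 fibroblast and meninges markers (horizontal axes) in the 24 Trap libraries, 1 point each. The diamond, males at 5 weeks replicate 3, has the highest marker sum, 33.0 CPM, and the highest Col3a1, Col1a1 and Col15a1, while its Col1a2 value lies within the others.

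In Input, each time was compared with uninjured over 2 libraries a group, 1 of each sex, again with the same uninjured libraries. edgeR called 0 of 36 tested collagen genes, beside 1.08% of all genes at 3 weeks, 0.107% at 5 weeks and 0.214% at 7 weeks, and DESeq2 called 0. At an unadjusted p under 0.05 there were 7 collagen genes at 3 weeks, 2 at 5 weeks and 1 at 7 weeks, out of 36, where 13.9%, 8.50% and 5.88% of all genes passed. With 3 residual degrees of freedom these comparisons are imprecise.

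Of the 7 at 3 weeks, Col16a1 is described above. Col1a1 had 3.60 and 3.12 CPM in the uninjured female and male libraries and 5.54 and 4.52 CPM at 3 weeks (0.56 ± 0.205, adjusted p = 0.210), and differed by 0.35 without the female 3-week library. Col6a2 differed by 0.73, Col8a2 by 0.78, Col3a1 by 0.58 and Col5a3 by -0.56, and Col8a1 lay below 0.5 CPM. The Col8a2 value was 0.49 without the uninjured female library and 1.19 without the uninjured male one. Several cell type markers moved in the same libraries. The mural marker sum was 98.6 and 111 CPM in the 3-week libraries and 86.6 and 95.5 CPM in the uninjured ones, and 1 of 11 mural markers, Notch3, was called higher. The Schwann sum was lower, 492.98 and 508 CPM against 575 and 631 CPM, with 2 of 6 tested markers called lower. The endothelial sum was higher without overlap (91.7 and 99.4 CPM against 78.2 and 87.8 CPM), as was the microglia sum (281 and 310 CPM against 227 and 276 CPM), with no marker called and 2 of 11 and 5 of 8 passing unadjusted. The oligodendrocyte sum was lower (14202 and 15038 CPM against 16063 and 17326 CPM), with no marker called and 4 of 8 passing unadjusted. Among astrocyte markers 2 of 8 were called lower, and among OPC markers 1 of 6. The astrocyte sum was not lower (5039 and 5375 CPM against 4977 and 5102 CPM). The ependymal sum was higher without overlap (33.2 and 39.4 CPM against 27.3 and 31.9 CPM), with no marker called. The fibroblast and meninges sum overlapped (69.8 and 71.5 CPM against 63.9 and 71.9 CPM), with no marker called and 2 of 9 passing unadjusted. The part of these cell types in the collagen values was not tested. At 5 weeks Col6a3 and Col6a2 differed by 0.62 and 0.57, and the Col6a3 value was 0.27 without the uninjured male library and 1.04 without the uninjured female one. At 7 weeks Col6a1 differed by 0.85, from 1.41 and 1.27 CPM to 2.05 and 2.76 CPM (adjusted p = 0.640), and by 0.48 without the male 7-week library. Beside it, 3 of 9 fibroblast and meninges markers passed unadjusted at 7 weeks and none was called. Of 11 collagen-binding proteoglycans and partners 4 passed unadjusted and none was called (median 0.29). The part of those cells in the Col6a1 value was not tested. Col25a1 had 23.2 and 19.5 CPM in the uninjured female and male libraries and 24.2 and 10.3 CPM at 7 weeks, a difference of -0.33 ± 0.247 (adjusted p = 0.967). It was called, at -0.88, when the female 7-week library was left out, and was 0.0375 without the male one.

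Between the sexes, no collagen gene was called in Trap over all states (0 of 28 by edgeR, beside 0.195% of all genes, and 0 by DESeq2). Unadjusted, 5 passed where 9.80% of all genes did, and each was lower in males. Col22a1 had 1.42, 2.08 and 3.65 CPM in the 12 female libraries and 0.892, 1.60 and 2.34 CPM in the 12 male ones, a difference of males minus females of -0.47 ± 0.133 (adjusted p = 0.204). Col4a6 differed by -0.83, Col11a1 and Col5a2 by -0.32 each and Col23a1 by -0.15. Col23a1 had medians of 123 CPM in females and 107 CPM in males. The fracture effect itself was called different between the sexes for 0 collagen genes at each time by edgeR and DESeq2, beside 0.00% of all genes by edgeR at 3, 5 and 7 weeks. Unadjusted, Col18a1 and Col6a3 passed at 3 weeks, none at 5 weeks and Col6a3 at 7 weeks, out of 28 genes, where 2.59%, 3.04% and 1.97% of all genes did.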

How the data were processed

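The authors deposited 1 table of RSEM estimated counts per Ensembl gene for the 32 libraries, and between 6.21% and 8.53% of the values in a library had decimals. Reads went, per the submitters' processing notes, through FastQC, Trim Galore, STAR and RSEM on GRCm38, and per the labels' protocols the libraries were poly-A selected. Versions, annotation and strand setting are not given in the sources used here. Reads that fit several genes are shared out by RSEM, so similar or overlapping genes are uncertain.

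Estimated counts were rounded here and tested by the 2-sided quasi-likelihood test of edgeR 4.0.16 (R 4.3.3) with TMM scaling, robust dispersions and the filterByExpr filter on low counts. Benjamini-Hochberg adjustment ran over all genes tested, and a call is an adjusted p under 0.05. Trap against Input used all 32 libraries with sex and state as terms (23 residual degrees of freedom), Trap comparisons a mean per sex and state over 24 libraries (16), and Input comparisons sex as an additive term over 8 libraries. CPM values are TMM-scaled. Gene types, exons and coordinates are from GENCODE M21, matched for 55227 identifiers. Symbols are from a separate list of gene names, matched for 55141 identifiers. The scripts were tested on simulated counts.

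The members, classes and lists were chosen with earlier results of these data known. Named in full were the genes with the highest Trap or Input level of a class and, of the described genes, the 5 largest and 5 smallest differences; the others are given mostly by their difference. From each list up to 4 called genes with the smallest p were named; Colgalt1, Colgalt2, Dcn, Lum and Mmp9, genes near a call after fracture, and the ratios between chains were picked after their values were seen. Alternatives were DESeq2 1.42.0, its size factors, no filter, subsets of groups or libraries and leaving out libraries. In the Trap comparisons the replicate number also served as a block (within each sex, added after the data were seen). A result on Schwann markers in Input at 7 weeks is not reported here.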

Additional observations from a re-analysis of the deposited data

Results flagged for a closer look

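In each group of 4 to 10 libraries, the highest and the lowest value of the 27 described genes were compared with the rest by Dixon's gap test. Of 135 groups, 7 held a value standing apart, and about 7 would by chance. Trap females at 3 weeks, replicate 3, gave 2 of them. Col4a2 was 3.29 CPM there, below the 5.51 to 6.80 CPM of the other Trap libraries at 3 weeks, and Col25a1 was 1.84 CPM, above 0.482 to 0.987 CPM. In Trap males at 5 weeks, replicate 3, Col3a1 was 3.63 CPM, above 0.378 to 0.893 CPM. Col12a1 was 19.4 CPM in uninjured Trap females replicate 3, where the other uninjured Trap libraries had 7.50 to 11.5 CPM. Col16a1 was 24.02 CPM in uninjured Trap males replicate 2, below 26.8 to 28.2 CPM. Col19a1 was 1.37 CPM in Trap females at 7 weeks replicate 3, above 0 to 0.255 CPM. Col22a1 was 1.61 CPM in the Input library of males at 3 weeks, above the 0.426 to 0.948 CPM of the other 7 Input libraries.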

How the results depend on the processing

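Over 40 other settings, 1077 of 1080 values of Trap against Input for the 27 described genes kept their direction and their side of the threshold. Col4a6 turned to -0.13 in males only (adjusted p = 0.748), and with uninjured libraries only, where fewer samples entered, Col4a1 (-0.26) and Col6a2 (-0.65) were no longer called (adjusted p = 0.183 and 0.102). Leaving out 1 library gave 14 genes higher each time and 19 to 21 lower. DESeq2's size factors moved the median of all genes from -0.01 to -0.14, and no filter moved it to -0.27.

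Without the 2 libraries that stood apart, 1 collagen gene, Col16a1, was called in Trap at 3 weeks. Leaving out 1 library called 0 to 1 collagen genes in Input at 7 weeks: Col25a1 without the female 7-week library (-0.88 ± 0.155, adjusted p = 0.0349, beside 0.0349 to 1 over its alternatives), which leaves 1 library at that time, assumed to vary like the others. Without the male 7-week library Col25a1 was 0.0375. The cause was not tested.

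All genes called in Trap at 3 weeks numbered 17, and 135 with DESeq2, 34 with no filter, 44 with the replicate block, 77 with that block within each sex and 106 without those 2 libraries. For males against females they numbered 30, and 93 with DESeq2 and 46 without those libraries.

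The replicate numbers were not taken to pair the samples, since no label says what they share and not every pair correlated. The deposited column names carry a prefix that joins the number and the sex, except for females number 1. What that prefix stands for is not given. All Input libraries are numbered 1. Of 84 pairs of Trap libraries with the same number, 21 had deviations that correlated above 0.1 (median r 0.04), beside 18 of 168 pairs with other numbers (median -0.01). Within a sex these were 17 of 36 (median 0.09) and 5 of 72 (median -0.05). Of 24 libraries, 15 correlated best with their own number, a hint from the data and not a stated design. Trap against Input was not fitted with such a block, but on the libraries numbered 1 alone. There, 14 collagen genes were higher and 20 lower in Trap. With the number as a block in the Trap comparisons, 0 were called after fracture or between the sexes. A block of the number within each sex, chosen after seeing the data, also called 0 after fracture.

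Genes under 1 CPM rest on few counts a library, which limits their precision.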
